A study of Mus musculus with 6 samples.

Results

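The mouse genes named Zfp and a number encode zinc finger proteins, and their acetylation on lysine 5 of histone H4 (H4K5ac) was examined here in the hippocampus. Members were all protein-coding genes of the GENCODE annotation of mm9 (NCBIM37) with such a name, with or without a letter after the number, and no read count entered the choice. The rule found 371 annotation entries, of which 367 distinct genes were kept, among 22225 protein-coding genes in all. A member was called tandem where another member lay within 100 kb and single otherwise, which gave 197 tandem and 170 single members. At the edge of that rule, Zfp932 and Zfp605 lay 99680 bp apart and were counted as tandem, while Zfp825 and Zfp72 lay 103950 bp apart and were counted as single.

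The mice were C57/BL6 males, of 6 months per the labels. The fear-conditioned group (FC) received a foot shock in a training context on consecutive days, the control group (CON) was exposed to that context without a shock, and hippocampi were taken after both groups had been put back into the context for a memory test. Hippocampal chromatin of each group was precipitated with an antibody to H4K5ac or with non-specific IgG, and input chromatin was sequenced beside them, so that the series held 6 libraries and 1 library for each group and antibody. The comparison of FC with CON therefore has no replicate, and that of H4K5ac with IgG or input was made once in each group. No test across samples was made.

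Most Zfp proteins carry fingers of the C2H2 kind, in which a pair of cysteines and a pair of histidines hold a zinc ion. Many of them also carry a KRAB domain near the N-terminus, which recruits the corepressor TRIM28 and through it the H3K9 methyltransferase SETDB1 and HP1 proteins. KRAB zinc finger genes multiplied by local duplication and lie in clusters, their finger array is usually encoded by 1 long last exon, and the 3′ ends of such genes are known as sites of repressive chromatin. H4K5ac is a mark of open, active chromatin that is found at the start of expressed genes.

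The 240 bases upstream of the transcription start site (TSS) are shown for the 3 members with the highest and the 3 with the lowest promoter H4K5ac over IgG, because these starts span the range of the values given below. Sequences are from the mm9 genome, each 5′ to 3′ on the strand of its gene, and CG dinucleotides are in capitals. Zfp707 lies at chr15:75799313-75799552 on the plus strand with 9 CG, Zfp36l2 at chr17:84587288-84587527 on the minus strand with 28, and Zfp46 at chr4:135840358-135840597 on the plus strand with 3.
Zfp707, high: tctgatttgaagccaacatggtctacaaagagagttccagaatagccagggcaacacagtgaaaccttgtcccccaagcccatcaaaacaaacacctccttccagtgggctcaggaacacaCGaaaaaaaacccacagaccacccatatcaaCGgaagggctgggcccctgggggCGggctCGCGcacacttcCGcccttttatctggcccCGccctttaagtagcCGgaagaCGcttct
Zfp36l2, high: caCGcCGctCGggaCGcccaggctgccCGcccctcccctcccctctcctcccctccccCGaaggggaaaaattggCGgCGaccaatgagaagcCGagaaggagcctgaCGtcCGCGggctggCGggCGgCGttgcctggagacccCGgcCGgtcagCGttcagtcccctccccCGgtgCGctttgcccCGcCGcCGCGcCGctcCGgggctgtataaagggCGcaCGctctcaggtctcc
Zfp46, high: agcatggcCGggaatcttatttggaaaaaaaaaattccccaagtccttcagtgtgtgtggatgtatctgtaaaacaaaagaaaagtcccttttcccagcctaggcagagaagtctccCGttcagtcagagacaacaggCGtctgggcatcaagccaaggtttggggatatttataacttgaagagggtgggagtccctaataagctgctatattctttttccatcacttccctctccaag
The low group holds Zfp936 at chr7:50442300-50442539 on the plus strand with 0 CG, Zfp558 at chr9:18282713-18282952 on the minus strand with 3, and Zfp735 at chr11:73502040-73502279 on the plus strand with 1.
Zfp936, low: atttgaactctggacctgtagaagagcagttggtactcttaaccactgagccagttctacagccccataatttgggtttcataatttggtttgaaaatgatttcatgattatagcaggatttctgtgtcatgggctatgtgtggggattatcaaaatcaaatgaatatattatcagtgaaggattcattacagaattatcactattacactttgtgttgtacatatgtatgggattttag
Zfp558, low: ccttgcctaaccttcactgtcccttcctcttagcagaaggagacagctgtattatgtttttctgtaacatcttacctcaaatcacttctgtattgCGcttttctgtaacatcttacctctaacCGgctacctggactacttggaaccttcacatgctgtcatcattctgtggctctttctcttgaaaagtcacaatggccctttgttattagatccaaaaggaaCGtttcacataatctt
Zfp735, low: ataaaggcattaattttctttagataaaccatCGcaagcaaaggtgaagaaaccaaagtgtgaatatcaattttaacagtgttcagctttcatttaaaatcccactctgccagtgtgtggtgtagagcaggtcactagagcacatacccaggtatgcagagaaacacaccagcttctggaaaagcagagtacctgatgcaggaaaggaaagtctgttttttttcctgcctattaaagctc
The number of CG dinucleotides did not separate the 2 groups, since Zfp46 and Zfp558 held 3 each. Over all members the median was 9 CG in this window against 8 over all protein-coding genes, and 95.6% of members held at least 1 against 92.1% of all genes.

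Stretches of 3 successive fingers from the last coding exon are shown for 3 members whose 3′ ends differed in H4K5ac, with the codons of the zinc-binding cysteines and histidines in capitals. All 3 stretches lie inside the last 2 kb of the gene. Zfp119a (chr17:56004481-56004732, minus strand, 0 CG) was far below IgG there, whereas Zfp707 (chr15:75805373-75805624, plus strand, 14 CG) and Zfp628 (chr7:4872060-4872311, plus strand, 16 CG) were above it.
Zfp119a: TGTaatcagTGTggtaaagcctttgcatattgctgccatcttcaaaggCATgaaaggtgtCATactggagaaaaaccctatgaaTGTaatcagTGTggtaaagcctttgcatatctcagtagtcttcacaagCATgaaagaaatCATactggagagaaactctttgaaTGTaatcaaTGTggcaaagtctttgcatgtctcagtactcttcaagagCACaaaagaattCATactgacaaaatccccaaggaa
Zfp707: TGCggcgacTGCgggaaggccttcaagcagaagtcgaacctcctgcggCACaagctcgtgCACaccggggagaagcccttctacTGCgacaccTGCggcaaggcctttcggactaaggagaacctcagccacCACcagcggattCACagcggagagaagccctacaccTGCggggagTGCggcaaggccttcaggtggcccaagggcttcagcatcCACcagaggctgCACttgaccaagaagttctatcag
Zfp628: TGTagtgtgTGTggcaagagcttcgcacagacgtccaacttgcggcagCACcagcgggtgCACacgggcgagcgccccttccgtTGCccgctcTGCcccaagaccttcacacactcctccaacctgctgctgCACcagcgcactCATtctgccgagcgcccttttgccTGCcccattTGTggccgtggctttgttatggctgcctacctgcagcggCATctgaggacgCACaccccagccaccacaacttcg

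The libraries held 14549689 to 45673239 mapped reads, the IgG libraries being the shallowest, and 11.5 to 17.9% of the reads of a library repeated a position and strand already seen. Reads were counted in 3 windows of every gene: the promoter, taken as the 2 kb before the TSS, the gene body, and the TTS end, taken as the last 2 kb before the transcription termination site. Enrichment is the log2 ratio of H4K5ac to IgG reads, each scaled to its library's total, in windows with at least 20 reads in both libraries together. Intervals are exact 95% intervals of a read ratio. They cover counting error only and compare libraries, not mice. The median member promoter held 55 H4K5ac, 10 IgG and 44 input reads in FC and 61, 12 and 28 in CON, so individual genes were measured coarsely. Below the minimum in either group were 25 members at the promoter and 58 at the TTS end, of which 40 carried a KRAB pattern. As a check of the tissue, the promoters of 8 neural genes such as Camk2a and Snap25 had median enrichment of 1.05 in FC and 0.49 in CON, beside 1.02 and 0.83 over all protein-coding genes, so the CON value was below that of all genes. Those of 6 genes of other tissues such as Alb and Krt14 had −0.90 (5 with enough reads) and −0.28, with Myh6 above 0 in both groups (1.30 and 0.82).

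Tandem and single members differed in build before any read was counted. A KRAB pattern was found in the translated coding sequence of 132 tandem members (67.0%) and of 37 single members (21.8%). Tandem members had a median of 11 C2H2 fingers, 96.1% of which lay in the last coding exon, and single members had 6, with 71.1%. No finger was found in 19 members, 18 of them single, among which are the RNA-binding Zfp36 proteins, whose fingers are of another kind. Median gene length was 13562 bp in tandem and 17538 bp in single members, against 15525 bp over all protein-coding genes. Tandem members had the lower observed over expected CpG within 1 kb of the TSS (0.437 against 0.539; 0.468 over all genes) and the lower GC content at the TTS end (42.0% against 42.9%; 45.7% over all genes). Chromosome 7 held 87 members (69 tandem), chromosome 17 held 45 (35 tandem) and chromosome 13 held 36 (25 tandem), while none of the 14 members on chromosome 4 was tandem.

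Promoters of Zfp genes carried H4K5ac in both groups and in both classes. The median enrichment of tandem promoters was 1.17 in FC (quartiles 0.65 to 1.82, n = 189) and 1.15 in CON (0.46 to 1.56, n = 192), and that of single promoters was 1.34 in FC (0.76 to 1.98, n = 156) and 1.17 in CON (0.62 to 1.57, n = 157). Over all protein-coding genes it was 1.02 and 0.83. The tandem minus single difference of −0.17 in FC and −0.02 in CON was smaller than the spread of the medians over genes (half-widths of 0.28 and 0.20, from the order-statistic intervals of both medians, a description since genes are not replicates), and in FC it turned to 0.12 with input in place of IgG. At least 2-fold enrichment was reached by 215 of 345 members in FC (116 of 189 tandem and 99 of 156 single), against 50.6% of all protein-coding genes, and by 201 of 349 in CON (108 of 192 and 93 of 157), against 42.8%. Promoters above IgG in both groups numbered 171 of 189 tandem and 130 of 153 single members, beside 14086 of 19087 protein-coding genes. As densities, the tandem median was 0.886 RPKM (reads scaled to window length and library size) for H4K5ac and 0.378 for IgG in FC and 0.862 and 0.394 in CON, so the IgG level itself was similar in the 2 groups. The single median was 0.870 and 0.309 in FC and 0.841 and 0.364 in CON. Tandem promoters thus had the higher IgG median in both groups and no lower H4K5ac median.

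The member with the highest mean promoter enrichment over both groups was Zfp707, a KRAB gene on chromosome 15, with 82 H4K5ac, 0 IgG and 40 input reads in FC and 105, 9 and 35 in CON. With a floor of 3 IgG reads in place of the 0 counted, its FC promoter was 12.6-fold enriched, a value set by that floor. Its CON enrichment was 2.35 (interval 1.44 to 3.59). Zfp36l2, which encodes a protein that binds AU-rich elements and speeds mRNA decay, had 81, 3 and 46 reads in FC and 64, 3 and 22 in CON, an enrichment of 3.42 and 3.08. Both genes therefore stood high in both groups, with IgG counts too small to rank them. Zfp46 followed with 120, 8 and 52 reads in FC and 146, 7 and 41 in CON, and Zfp12 had 92, 4 and 45 and 71, 5 and 37. Zfp143, an activator that binds many promoters, had 86, 7 and 38 reads in FC and 111, 6 and 29 in CON. In all 5 of these promoters, picked for their H4K5ac, the unscaled H4K5ac reads exceeded the input reads in both groups. The medians over all members did so too, with 55 and 44 reads in FC and 61 and 28 in CON.

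At the other end, Zfp936 had 14 H4K5ac, 19 IgG and 37 input reads in FC and 4, 21 and 30 in CON, an enrichment of −1.55 and −3.38. Zfp558 had 13, 21 and 21 reads and 8, 25 and 33, an enrichment of −1.79 and −2.71. These promoters thus held fewer H4K5ac than IgG reads even though the H4K5ac libraries were the deeper ones. Zfp735 (8, 15 and 18; 9, 11 and 23 reads) and Zfp804b (10, 17 and 15; 12, 16 and 28 reads) were low in both groups as well. Zfp709 had 16, 10 and 25 reads in FC and 6, 17 and 32 in CON, an enrichment of −0.47 and −2.55.

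The classes parted at the 3′ end of the gene. The median enrichment of the TTS end was −0.03 in FC (quartiles −0.76 to 0.67, n = 166) and −0.16 in CON (−0.88 to 0.65, n = 175) in tandem members, and 0.47 in FC (−0.28 to 1.17, n = 148) and 0.59 in CON (−0.17 to 1.09, n = 156) in single members, beside 0.68 and 0.57 over all protein-coding genes. The tandem minus single difference was −0.50 in FC and −0.76 in CON, with half-widths of 0.30 and 0.28. As densities, tandem medians were 0.380 RPKM for H4K5ac and 0.378 for IgG in FC and 0.417 and 0.424 in CON. Single medians were 0.475 and 0.344 in FC and 0.494 and 0.364 in CON, so the IgG medians differed between the classes too. At least 2-fold enrichment was reached at the TTS end by 79 of 314 members in FC (29 of 166 tandem and 50 of 148 single), against 37.2% of all protein-coding genes, and by 75 of 331 in CON (28 of 175 and 47 of 156), against 30.6%. TTS ends below IgG in both groups numbered 60 of 163 tandem members (36.8%), 29 of 146 single members (19.9%) and 16.2% of all protein-coding genes. The gene body lay between promoter and TTS end, with medians of 0.35 and 0.28 in tandem, 0.67 and 0.63 in single members and 0.70 and 0.61 over all genes.

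Within the same gene, H4K5ac was lower at the TTS end than at the promoter in 139 of 164 tandem members in FC and in 147 of 175 in CON, with median differences of −1.37 and −1.23. Single members were lower at the TTS end in 104 of 142 and 110 of 151, with −0.80 and −0.47, and over all protein-coding genes 62.8% were lower in either group, with −0.36 and −0.30. At tandem TTS ends 7.43% of FC H4K5ac and 7.32% of FC IgG reads had a mapping score below 20, against 6.51% and 10.4% at single ones, and in CON the shares were 5.31% and 6.31% against 5.5% and 7.69%. With reads of a score of at least 20 alone, the tandem minus single difference was −0.55 in FC and −0.74 in CON. The TTS end lay on the promoter of another protein-coding gene in 7 tandem and 7 single members. Input density over the gene body was 1.17 times the genome mean in the median tandem member and 1.20 times in the median single member, and the densest member was Zfp811 with 1.75 times.

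The members were also split by KRAB pattern. The 169 members with a KRAB pattern were at a median TTS enrichment of −0.25 and −0.29 in FC and CON, while the 198 members without one were at 0.61 and 0.55. Among members with the pattern, tandem genes were at −0.16 in FC and −0.30 in CON (n = 109 and 113) and single genes at −0.40 and −0.11 (n = 25 and 29), so the tandem minus single difference reversed to 0.24 in FC and shrank to −0.19 in CON. Over input, tandem genes with the pattern were at −0.13 and −0.33 and single genes at −0.21 and −0.49, so with that control the tandem genes were the higher ones in both groups. Among members without the pattern, tandem genes were at 0.50 and 0.34 and single genes at 0.70 and 0.70. Over input these were −0.05 and 0.30 in tandem and 0.33 and 0.53 in single genes, so the FC value of the tandem genes without KRAB depended on the control. At the promoter the KRAB members had medians of 1.08 and 0.99 and the others 1.41 and 1.25, or 0.91 and 0.99 and 0.94 and 1.22 over input. Against input, the TTS medians were −0.15 and −0.37 with the KRAB pattern and 0.21 and 0.47 without it, and in the tandem split they were −0.10 and −0.11 in tandem and 0.27 and 0.37 in single members. The KRAB strata differed in base composition too, with a median observed over expected CpG at the TSS of 0.409 with the pattern and 0.570 without it, whose part in the result was not tested.

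**Figure D1:**
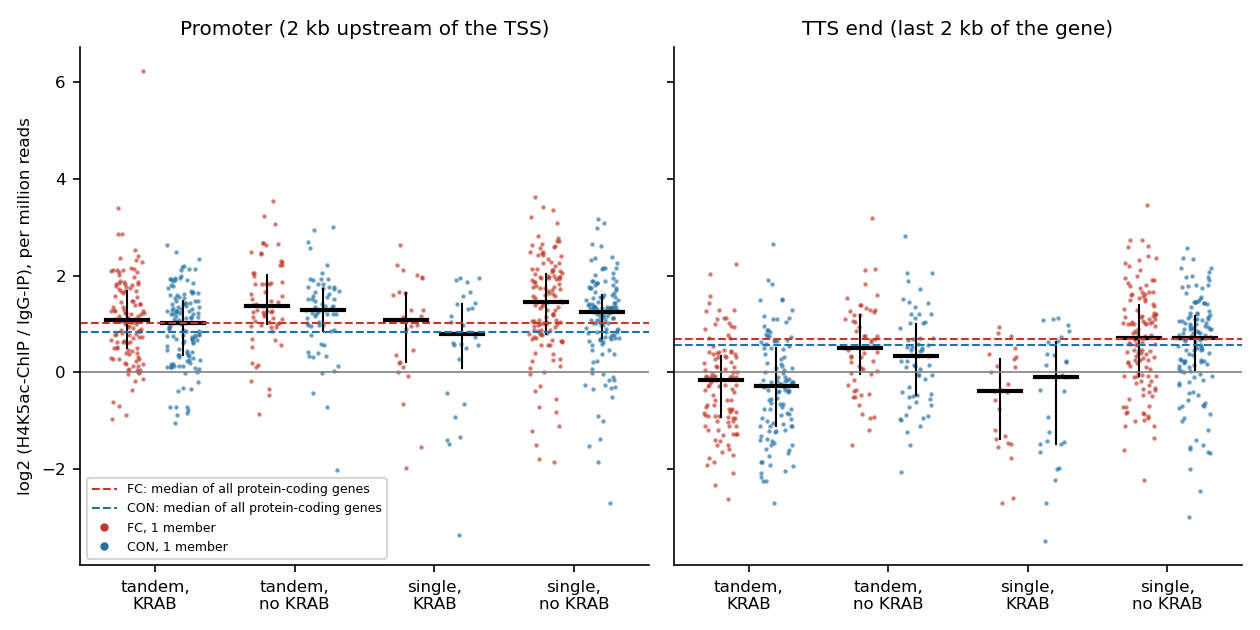
Enrichment of H4K5ac over IgG (log2, y axis) of each member at the promoter (left) and the TTS end (right) in FC and CON, with the members split by tandem position and KRAB pattern (x axis). Thick bars are medians, thin bars run between the quartiles, and dashed lines are the medians of all protein-coding genes. Promoter medians lie near or above the dashed lines in all strata, whereas TTS medians with the KRAB pattern are below 0 in tandem (−0.16 in FC) and single members (−0.40 in FC), and the single highest point is the FC promoter of Zfp707, whose height is set by its 0 IgG reads.

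**Figure D2:**
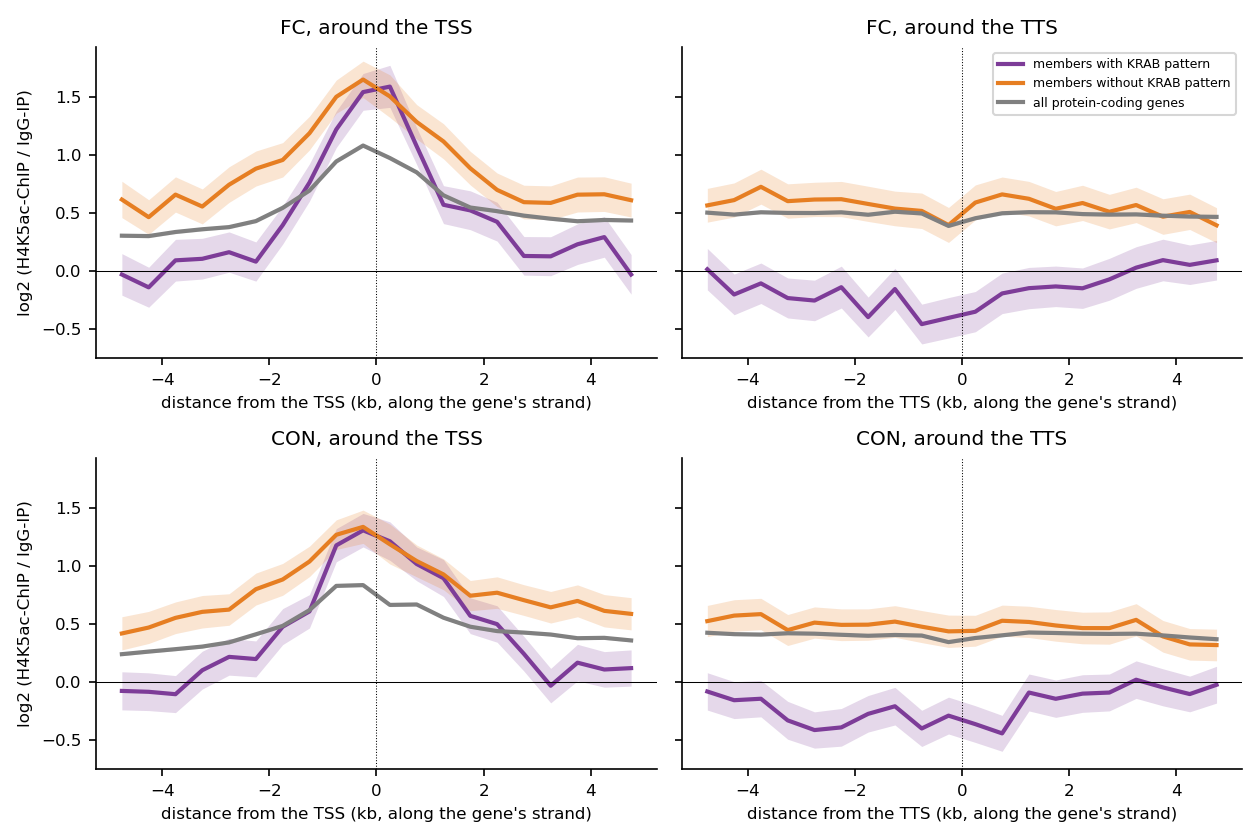
Pooled H4K5ac over IgG (log2, y axis) in 500-bp bins up to 5 kb on each side of the TSS and the TTS (x axis, distance in kb along the strand of the gene), for members with and without a KRAB pattern and all protein-coding genes, counting 1 read per position and strand, with exact 95% intervals as bands for the members. Both sets of members peak at the TSS, and around the TTS the KRAB members lie below 0 (−0.41 in FC and −0.29 in CON in the bin just before the TTS) while the others stay near all genes.

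The same pattern was seen over the distance from each gene end, counting 1 read per position and strand. In the 500 bp upstream of the TSS, reads pooled over the KRAB members gave 1.54 in FC (interval 1.39 to 1.70) and 1.31 in CON (1.16 to 1.45), close to the 1.65 and 1.34 of the members without KRAB and above the 1.08 and 0.83 of all protein-coding genes. At 4.5 to 5 kb upstream the KRAB members were back at −0.03 and −0.08, whereas the others were at 0.61 and 0.42. In the 500 bp before the TTS the KRAB members were at −0.41 (−0.58 to −0.23) and −0.29 (−0.45 to −0.13), and the others at 0.39 and 0.43.

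The number of fingers went with the TTS value as well. Members with 0 to 4 fingers had TTS medians of 0.65 in FC and 0.66 in CON, those with 5 to 9 had 0.43 and 0.51, those with 10 to 14 had −0.14 and −0.20, and those with 15 or more had −0.15 and −0.31. Among members with at least 5 fingers, tandem genes were at −0.09 and −0.20 and single genes at 0.41 and 0.37, and finger number was not separated from the KRAB pattern. KRAB members whose TTS end held at least 500 coding bases of the last exon were at −0.36 and −0.29, and those with fewer were at −0.08 and −0.30. Over input, the former were at −0.20 and −0.42 and the latter at −0.10 and −0.19. The members were also divided by CpG content: the tercile of members poorest in CpG had promoter medians of 0.86 and 0.68 and TTS medians of −0.16 and −0.31, the middle tercile had 1.29 and 1.30 and 0.11 and 0.10, and the tercile richest in CpG had 1.59 and 1.22 and 0.59 and 0.58. The promoter of the middle tercile was thus not below that of the richest in CON, nor in FC over input (1.06 and 0.96). Among KRAB members alone, TTS medians were −0.38 and −0.64 in the poorest tercile and 0.21 and 0.60 in the richest (21 and 24 genes), and over input the richest were at 0.03 and 0.00. Another 180 genes with at least 5 C2H2 fingers and names outside the Zfp rule were split in the same way. Of the 87 with a KRAB pattern, the 24 with enough reads in FC and the 28 in CON had TTS medians of −1.28 and −0.78, and those of the 93 without it were 0.62 and 0.64 (n = 88 in each).

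The low 3′ ends can be read from the counts of individual members, picked for a TTS end far below the promoter. Zfp945, a KRAB gene with 18 fingers, had 6 H4K5ac, 19 IgG and 20 input reads at the TTS end in FC and 11, 16 and 22 in CON, an enrichment of −2.70 and −1.65, while its promoter was at 0.89 and 1.67. Zfp119a, whose fingers are printed above, had 14, 16 and 31 reads and 8, 18 and 25, an enrichment of −1.31 and −2.25 below a promoter of 2.08 and 1.26. Both genes lie on chromosome 17, where the TTS medians of all members were −0.91 and −0.55 over IgG and −0.14 and −0.81 over input. Zfp707, named here for the gap to its FC promoter with 0 IgG reads, had a TTS end of 1.11 and 0.95, which is above IgG.

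Members with more H4K5ac at the 3′ end than at the promoter were fewer. Zfp628, with 16 fingers and no KRAB pattern, had 69 H4K5ac, 3 IgG and 35 input reads at the TTS end in FC and 58, 6 and 24 in CON, an enrichment of 3.19 and 2.05 against 1.24 and 1.40 at the promoter. Zfp609 had 83, 3 and 67 reads and 73, 8 and 28, an enrichment of 3.46 and 1.99 against 1.87 and 0.86. Zfp688, the only one of the 3 with a KRAB pattern, had 39, 7 and 54 reads and 75, 5 and 32 (1.28 and 2.65), above a promoter of 0.07 and −0.21. With 3 to 8 IgG reads in these windows, the sizes are imprecise. Each TTS end was above IgG in both groups, but the 3 genes were picked for a TTS end high over the promoter. Their level over IgG is thus no separate result.

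Tandem members formed 48 runs of at least 2, of which 17 held 5 or more (122 members). Reads pooled over the promoters of a run gave an interval wholly above 0 in 17 of 17 runs in both groups. The promoters also lay above the gaps of their own run in 17 of 17. A gap is every base between the bodies of neighbouring members. It can thus hold their promoters and genes of other names, such as Rsl1 in the largest run, so the compared reads overlap. The promoters exceeded the TTS ends in 16 of 17 runs in both groups. At the TTS ends the interval lay wholly below 0 in 5 runs in FC and 4 in CON and wholly above 0 in 3 and 4. The 101 gaps between neighbours of these runs, 2.37 Mb in all, were at 0.15 in FC (interval 0.12 to 0.18) and 0.02 in CON (−0.01 to 0.04) when pooled. Over input they were at 0.01 in FC (−0.01 to 0.03) and 0.07 in CON (0.05 to 0.09), so their level depended on the control. By run and over IgG, the gaps ranged from −1.77 to 0.90 in FC, with an interval above 0 in 10 runs and below 0 in 3, and in CON above 0 in 5 and below 0 in 6. Over the 17 runs, Spearman's rho between the share of KRAB genes and the TTS value was −0.66 in FC and −0.57 in CON (Pearson's r −0.68 and −0.56), a description over runs that share the same libraries. The rho was similar for the gaps (−0.54 and −0.57) and the gene bodies (−0.53 and −0.50) of these runs, and for the promoters it was −0.51 in FC and −0.01 in CON.

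The lowest run was on chromosome 17 (21844708 to 22303157, Zfp760 to Zfp947), where 6 of 6 members carried a KRAB pattern. Its TTS ends held 52 H4K5ac and 76 IgG reads in FC and 60 and 99 in CON, an enrichment of −1.67 (interval −2.20 to −1.14) and −1.85 (−2.33 to −1.37). Its gaps were as low (−1.77 and −1.64), yet its promoters stood above IgG at 0.56 and 0.43. The highest TTS ends in FC were those of the run from Zfp628 to Zfp580 on chromosome 7 (4866819 to 5005324), with 0 of 6 KRAB members, 349 and 57 reads in FC, 296 and 78 in CON, and an enrichment of 1.5 and 0.80. The run from Zfp553 to Zfp689 on the same chromosome (134376575 to 134592672, 4 of 7 KRAB) had TTS ends at 1.11 and 1.10 over all its members, and the run from Zfp786 to Zfp746 on chromosome 6 (47769265 to 48036592, 4 of 7) had 0.99 and 1.07. In the latter the 4 KRAB members were each above IgG in both groups, with Zfp786 at 1.43 and 1.49, Zfp398 at 1.12 and 0.65, Zfp212 at 0.21 and 0.62, and Zfp777 at 2.03 and 1.91. That run was named for its high TTS ends. Over all KRAB members, 83 of 134 TTS ends in FC and 90 of 142 in CON were below IgG.

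**Figure D3:**
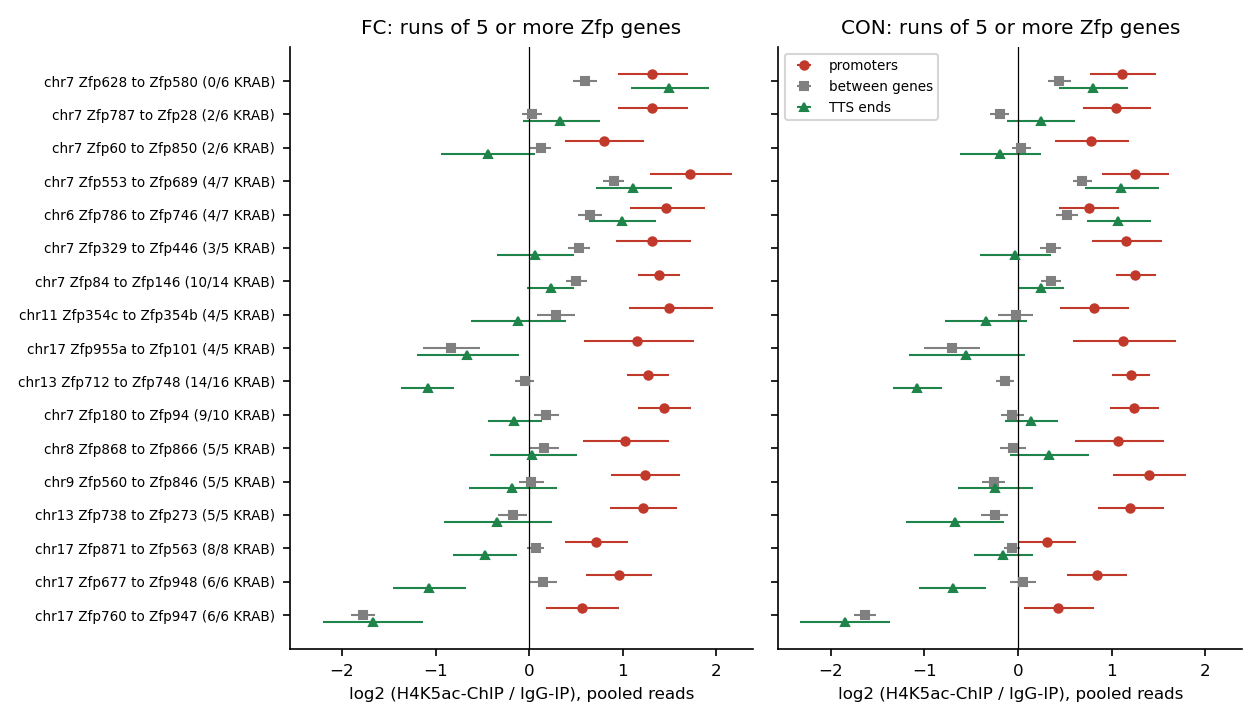
Pooled H4K5ac over IgG (log2, x axis) at promoters (circles), gaps between member gene bodies (squares) and TTS ends (triangles) for each of the 17 runs of at least 5 tandem members (y axis, ordered by the share of KRAB members), in FC and CON, with exact 95% intervals as bars. Promoters lie above 0 in every run in both groups, whereas TTS ends span −1.67 to 1.5 in FC.

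The largest run held 16 members on chromosome 13 (67139530 to 67654065, from Zfp712 to Zfp748), 14 of them with a KRAB pattern. Its promoters were pooled at 1.27 in FC and 1.21 in CON and its TTS ends at −1.08 in both, from 210 H4K5ac and 205 IgG reads in FC and 250 and 242 in CON, while its gaps were at −0.05 and −0.14. The promoters of its individual members ranged from 0.04 to 2.45 in FC and from −0.33 to 2.13 in CON. Their TTS ends ranged from −2.34 to 0.27 and from −2.08 to 0.04, with medians of −1.02 and −1.22. As densities, the median TTS end held 0.214 RPKM of H4K5ac, 0.430 of IgG and 0.290 of input in FC. In CON these were 0.195, 0.424 and 0.401. The input density lay below that of IgG in FC, so the size of the depletion there depended on the control. Across the run, summits of H4K5ac were placed on the mean of both groups, so a shared position is built in. At least 0.8 RPKM in each group, as the mean of 3 windows of 1 kb, was reached at 16 summits. Of these, 11 lay within 2 kb of a member's TSS and marked 11 members, and 1 more lay at the TSS of Rsl1, another gene of the cluster. The rest lay 5.9 to 16.8 kb from the nearest annotated TSS.

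**Figure D4:**
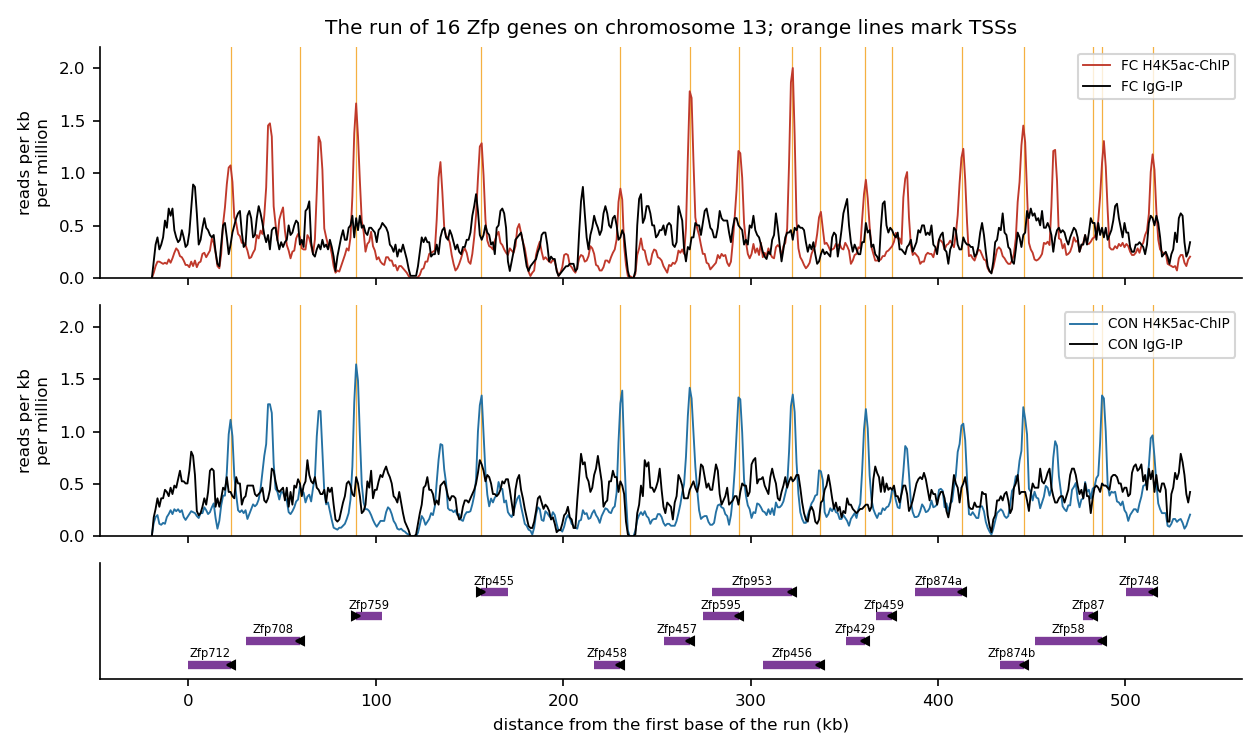
H4K5ac and IgG density (RPKM, y axis) as the mean of 3 windows of 1 kb along the run of 16 members on chromosome 13 (x axis, distance in kb from its first base), in FC and CON, with the genes drawn below and orange lines at their TSSs. Of 16 summits of H4K5ac, placed on the mean of both groups and at least 0.8 RPKM in each, 11 lie within 2 kb of a member's TSS.

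FC and CON were compared at the promoter by the log2 ratio of their H4K5ac reads, scaled to library size. The median over tandem members was 0.08 and over single members 0.09, the same as the 0.09 of all protein-coding genes, and the class difference was −0.01 with a half-width of 0.10. At least 1.5-fold higher in FC were 26 of 345 members (9 of 191 tandem and 17 of 154 single), against 9.82% of all protein-coding genes, and at least 1.5-fold lower were 4 (3 tandem and 1 single), against 5.16%. Both counts shifted with the choice of window, as given in the last paragraph. Past 1.5-fold higher and with an interval of the ratio wholly above 0 were 18 members. Past 1.5-fold lower and with an interval wholly below 0 were 2. These were 5.22% and 0.580%, beside 5.80% and 2.21% of all protein-coding genes. The input libraries differed in the same direction at these promoters, with a median log2 ratio of 0.29 over members and 0.27 over all genes, and the IgG libraries had −0.05 over members. Among the 26 members higher in FC the input ratio had a median of 0.29 and the IgG ratio of −0.47, and their part in the result was not tested.

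Zfp704 had 84 H4K5ac reads in FC and 47 in CON, a log2 ratio of 1.02 (interval 0.49 to 1.57), beside an input ratio of 0.92. Zfp560, the first member of a run on chromosome 9, had 109 and 65 reads, a ratio of 0.93 (0.48 to 1.40), with input at 0.24. Zfp473, whose product takes part in the 3′ processing of histone mRNA, had 50 and 26 reads, a ratio of 1.12 (0.42 to 1.87), with input at 0.10. The IgG ratios were −0.79 for Zfp704, −0.34 for Zfp560 and −0.69 for Zfp473. These genes were picked for their H4K5ac ratios, so a lower input ratio beside them is no separate result. The part of input and IgG in these ratios was not tested. Zfp488, a regulator of oligodendrocyte differentiation, had 43 and 21 reads (1.20, interval 0.44 to 2.05), with input at 1.28. Zfp709 had 16 and 6 reads and the largest ratio, 1.53 (0.17 to 3.24), from the fewest reads of the 5. Its input was at −0.71 and its IgG at −0.56.

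In the other direction Zfp458, a KRAB member of the largest run with 20 fingers, had 53 H4K5ac reads in FC and 119 in CON, a log2 ratio of −0.97 (interval −1.48 to −0.50), with input at −0.05 and IgG at 0.01. Its promoter was above IgG in both groups, at 0.67 and 1.65. Zfp498 had 33 and 61 reads, a ratio of −0.69 (−1.36 to −0.07), with input at 0.50 and IgG at −0.38. The next 3 had intervals that reached 0: Zfp318 with −0.65 (−1.36 to 0.03), Zfp944 with −0.64 (−1.44 to 0.10) and Zfp935 with −0.55 (−1.19 to 0.05). Zfp318 is known for its part in IgD expression in B cells, and the other two are KRAB genes.

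**Figure D5:**
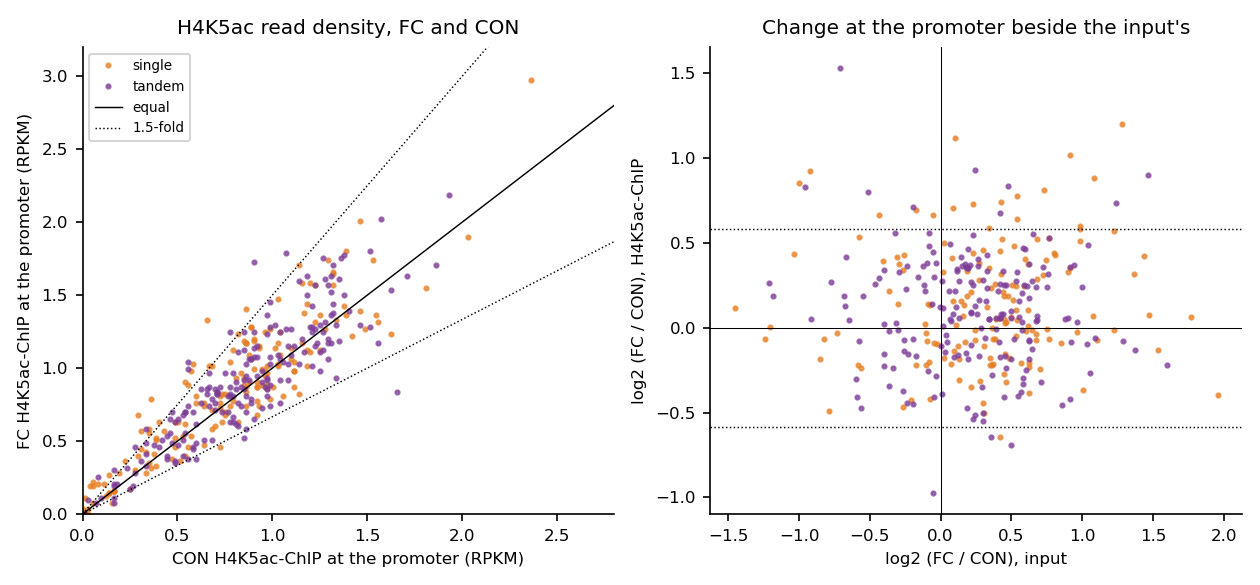
Left, promoter H4K5ac density (RPKM) of each member in FC (y axis) against CON (x axis), with dotted lines at 1.5-fold, and right, the log2 FC over CON ratio of H4K5ac (y axis) against that of input (x axis), with tandem and single members in colour. Of 345 members, 26 are at least 1.5-fold higher in FC and 4 at least 1.5-fold lower, and the points of both classes overlap.

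Members with a well-known role were mostly single genes without KRAB and had promoter medians of 1.60 in FC and 1.12 in CON over 21 and 22 genes with enough reads. At least 2-fold enriched were 13 of 21 in FC and 12 of 22 in CON, against 50.6% and 42.8% of all protein-coding genes. Of the mRNA decay factors besides Zfp36l2, Zfp36 (tristetraprolin) had 80 H4K5ac, 9 IgG and 43 input reads in FC and 71, 15 and 29 in CON (1.96 and 1.08), and Zfp36l1 had 66, 7 and 64 and 56, 10 and 18 (2.03 and 1.30). Among transcription factors, Zfp335, mutated in a form of microcephaly, was at 2.12 and 1.88, and Zfp281, a factor of pluripotent cells, at 2.66 and 1.17. Zfp207, which binds the mitotic spindle, was at 1.02 and 1.54, Zfp91, a ubiquitin ligase, at 0.78 and 0.62, Zfp148, which binds GC-rich promoters, at 0.87 and 0.90, and Zfp106, an RNA-binding protein, at 0.87 and 1.41. All of these lay above IgG in both groups.

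Of the factors with neural roles, Zfp238 (RP58), a repressor needed for cortical neurons, had 56 H4K5ac, 6 IgG and 39 input reads in FC and 40, 13 and 41 in CON, an enrichment of 2.00 and 0.46 and an FC over CON ratio of 0.67 (interval 0.06 to 1.29) with input at −0.44. Zfp423, which with Zfp521 binds EBF factors, had 36, 10 and 39 and 22, 3 and 14 reads (0.68 and 1.56), and its FC over CON ratio of 0.88 (0.09 to 1.73) came with 1.08 in input. Zfp521 was at 0.09 and 0.78. Zfp536, a repressor in neuronal differentiation, was at 2.05 and 1.30 with an FC over CON ratio of 0.64 (−0.08 to 1.39), Zfp462 was at 2.62 and 0.80, Zfp365 at 1.69 and 0.69, and Zfp804a, named in schizophrenia genetics, at 0.93 and 0.57. All 7 lay above IgG in both groups, as did 301 of 342 members and 14086 of 19087 protein-coding genes, with 2 to 17 IgG reads behind each value.

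The KRAB genes of known role showed no common promoter level. Zfp57, which guards methylation at imprinted loci in the embryo, had 25 H4K5ac, 18 IgG and 54 input reads in FC and 39, 24 and 34 in CON, an enrichment of −0.66 and −0.44. Zfp809, which silences retroviral DNA in embryonic stem cells, was at 1.06 and 1.15 at the promoter and at −1.28 and −1.06 at the TTS end. The paralogs Zfp110 and Zfp369, whose products bind the neurotrophin receptor p75, were at 0.92 and 0.44 and at 1.60 and 1.96, and the TTS end of Zfp110 was at −0.78 and −1.32. Zfp42 (Rex1), a marker of pluripotent cells without KRAB, had 10, 9 and 59 reads in FC, under the minimum, and 12, 11 and 35 in CON, below IgG once scaled to library size. Zfp931, a KRAB gene with 7 fingers on chromosome 2, could not be measured at the promoter, with 5 H4K5ac and 0 IgG reads in FC and 11 and 1 in CON, and had 9, 11 and 7 reads at the TTS end in FC and 25, 10 and 25 in CON (−1.39 and 0.16), where its FC over CON ratio was −1.24 (−2.57 to −0.14) and that of input was −2.13.

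The genes of the machinery that KRAB proteins recruit were looked at in the same windows. Over 18 such genes, among them Trim28, Setdb1 and the HP1 genes Cbx1, Cbx3 and Cbx5, the median promoter enrichment was 1.21 in FC and 1.22 in CON, and 13 and 12 were at least 2-fold enriched, against 50.6% and 42.8% of all protein-coding genes. Their TTS ends were at 0.58 and 1.09. At least 1.5-fold higher in FC was Hdac1, a histone deacetylase, with 67 H4K5ac reads in FC and 50 in CON, a log2 ratio of 0.60. Its enrichment over IgG went the other way, at 1.10 in FC and 1.83 in CON, from 14 and 6 IgG reads. At least 1.5-fold lower was Setdb1, with 36 and 65 H4K5ac reads, a ratio of −0.66 and an enrichment of 0.43 and 1.66. Thus 1 of 18 was past the fold in each direction, beside 9.82% and 5.16% of all genes.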

How the data were processed

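H4K5ac ChIP, IgG and input chromatin from the hippocampus of FC and CON mice had been sequenced as SOLiD reads of up to 50 bp and aligned to mm9 with Bioscope, per the study's methods. The authors deposited 1 line per mapped read with its position, strand and a score of 4 to 100, which was read here as a mapping score. The study's methods state that reads with several mappings on the genome were reported too. All deposited reads entered the main counts. The profiles around the TSS and the TTS count 1 read per position and strand. The files held 14549689 to 45673239 reads. A read counted in a window where it overlapped it by at least 1 bp. Ratios were scaled to total reads, with a pseudocount of 0.5 reads and a minimum of 20 reads in both libraries together, and intervals are exact Clopper-Pearson intervals of the read ratio. With 1 library for each group and antibody, classes are described by counts, medians and quartiles beside all protein-coding genes, and no test was made.

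C2H2 fingers and the KRAB pattern were searched in translated coding transcripts of the annotation. The KRAB pattern also matched 38 of 21450 other genes without a finger (0.177%). How many KRAB domains it misses was not measured, so members without the pattern may include KRAB genes. Named members were those of well-known role, Zfp931, the 5 highest and 5 lowest promoters, the 5 largest FC over CON ratios in each direction, the 3 largest differences between TTS end and promoter in each direction, and the first and last members of each long run. The rule also allowed up to 5 members of densest input. None exceeded 2 times the genome mean, and the densest is named. The ends of the long runs are named in the plot of the runs, and the few of them that stand apart in the text. No read count entered the rule for members, but the members and lists were chosen with earlier results of these data known.

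Alternatives covered the control (input for IgG), the mapping score, repeated reads, the read midpoint, the minimum, the scaling, the windows, the tandem distance, the largest run and GC content. The scripts were tested on simulated data. Python 3.11.15, NumPy 2.4.6, pandas 2.3.3, SciPy 1.17.1 and matplotlib 3.10.9 were used.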

Additional observations from a re-analysis of the deposited data

How the results depend on the processing

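The TTS difference between tandem and single members was the one difference larger than the spread of its medians that reversed, from −0.50 to 0.24 in FC among members with a KRAB pattern, with 25 single members left. It kept its sign in 15 of 16 alternatives in FC and in 16 of 16 in CON. The splits by KRAB pattern, by gene length, by overlap with other promoters and by neighbours of any name were chosen after seeing the data. In CON it moved from −0.76 to −0.48 with input as control, to −0.31 in the 2 kb downstream of the TTS (where it was −0.72 in FC), to −0.19 with the KRAB pattern and to −0.36 without it. The promoter difference in FC moved from −0.17 to 0.12 with input as control, and the FC over CON difference from −0.01 to 0.11 when the IgG ratio was subtracted. With a promoter of 5 kb, the count of members at least 2-fold enriched in CON went from 201 to 123 and that of members higher in FC from 26 to 13. The count of members lower in FC went from 4 to 10 with a mapping score of at least 20, to 7 with no minimum of reads and to 11 with 1 kb on each side of the TSS. No share of all protein-coding genes was taken under these settings. Whether the members shifted differently from all genes therefore cannot be told from these counts. The cause of these shifts was not tested. The number of tandem members ranged from 175 to 215. The gene body difference kept its sign in 10 of 10 alternatives in each group (−0.46 to −0.21 in FC, −0.39 to −0.26 in CON). The split by KRAB pattern was not among these 10, so whether the gene body difference holds within the KRAB strata was not tested. The counts of alternatives leave out 2 that could not move a class difference: the scaling outside dense input windows, which shifts all genes alike, and leaving out members dense in input, since 0 members exceeded the limit. No paired analysis was made, since each group and antibody had 1 library. The IgG reads, a median of 10 to 13 per member at the promoter and the TTS end, limit the enrichment of individual genes there.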
